A study of Mus musculus with 6 samples.

Results

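Cytochromes P450 of the Cyp3a and Cyp2b families are heme enzymes of the endoplasmic reticulum that oxidise steroids, bile acids, drugs and other foreign compounds in the liver. Their transcription is the classic readout of a pair of nuclear receptors, the constitutive androstane receptor (CAR, gene Nr1i3) and the pregnane X receptor (PXR, gene Nr1i2). Each pairs with a retinoid X receptor and binds repeats of a short hexamer near target genes, Cyp3a11 being the best known PXR target and Cyp2b10 the best known CAR target in mouse liver. Several members of both families also differ between the sexes in adult mouse liver.

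The genes described here are Cyp3a11, Cyp3a13, Cyp3a16, Cyp3a25, Cyp2b9, Cyp2b10 and Cyp2b13, chosen by symbol as those 7 of the 12393 genes with a probe set of their own on the array. They held 9 probe sets, 3 of them of Cyp2b10 and 1 of each other gene. Liver RNA was measured on Affymetrix arrays in 3 chromogranin A (Chga) knockout mice and in 3 wild-type mice, 1 array per sample; all were males aged 12 weeks, and the labels name no treatment. Both strains are given by a literature reference alone, so the targeted allele, the genetic background, feeding state and hour of dissection were not known here, and the labels do not say whether the animals shared a litter or cage. P-values therefore measure only the spread between these samples. Each probe set has 1 intensity per array, on a linear scale with arbitrary units. A change is the log2 difference, knockout minus wild type, of intensity plus a pseudocount of 16, fitted with limma over all probe sets, and a probe set was called at an adjusted p under 0.05.

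Chga itself read 61.5, 44.5 and 231 in the knockout arrays, against 167, 185 and 42.5 in the wild-type arrays. These dim values overlap, were above the background reference in 1 of 3 arrays of each group, and do not check the group labels. The background reference, the 95th percentile of 27 dim control probe sets on each array, left between 64.4% and 76.9% of probe sets above it, the lowest share being in knockout replicate 2. Array pairs correlated between 0.933 and 0.948 (Pearson's r across probe sets, which are not independent). Knockout pairs lay between 0.933 and 0.937, wild-type pairs between 0.942 and 0.948, and pairs across the groups between 0.933 and 0.943. Knockout arrays were thus no more alike than pairs across the groups. The tissue label fits its markers: 7 of 7 measured hepatocyte genes were kept, Alb, which encodes serum albumin, reading from 178997 to 210871 in knockout and from 161495 to 187904 in wild-type livers.

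The bases directly upstream of the start sites of the 4 genes bright enough to test are printed because 2 of these genes had lower values in every knockout array and the groups overlapped for the other 2. Each is the 250 bases before the start on the gene's own strand (RefSeq, GRCm38.p6), 5′ to 3′, and capitals mark the receptor half-site AGGTCA and its variant AGTTCA, read on either strand (TGACCT and TGAACT). Cyp3a13 lies at chr5:137921620-137921869 on the minus strand, Cyp2b10 at chr7:25897408-25897657 on the plus strand, Cyp3a11 at chr5:145879855-145880104 on the minus strand and Cyp3a25 at chr5:146009619-146009868 on the minus strand.
Cyp3a13: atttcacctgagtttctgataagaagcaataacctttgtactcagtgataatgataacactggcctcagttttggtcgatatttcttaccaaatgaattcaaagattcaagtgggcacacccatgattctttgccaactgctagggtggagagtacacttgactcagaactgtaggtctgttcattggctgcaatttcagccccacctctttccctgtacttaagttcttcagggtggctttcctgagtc
Cyp2b10: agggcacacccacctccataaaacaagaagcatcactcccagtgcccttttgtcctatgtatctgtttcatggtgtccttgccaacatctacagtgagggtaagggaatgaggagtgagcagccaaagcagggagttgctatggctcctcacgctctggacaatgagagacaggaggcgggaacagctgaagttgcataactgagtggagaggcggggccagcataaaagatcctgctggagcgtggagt
Cyp3a11: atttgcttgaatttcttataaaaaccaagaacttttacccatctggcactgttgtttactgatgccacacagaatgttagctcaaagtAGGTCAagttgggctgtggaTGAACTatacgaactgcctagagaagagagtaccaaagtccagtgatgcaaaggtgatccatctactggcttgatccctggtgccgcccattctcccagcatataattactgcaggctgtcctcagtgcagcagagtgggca
Cyp3a25: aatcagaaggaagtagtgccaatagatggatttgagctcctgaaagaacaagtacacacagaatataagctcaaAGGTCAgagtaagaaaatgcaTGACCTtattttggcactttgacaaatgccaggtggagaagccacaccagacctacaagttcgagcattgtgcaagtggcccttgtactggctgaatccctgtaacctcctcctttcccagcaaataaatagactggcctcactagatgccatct

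The windows of Cyp3a13 and Cyp2b10 held 0 half-sites. That of Cyp3a11 held 2, an AGGTCA beginning 162 bases and a TGAACT beginning 142 bases before the start, and that of Cyp3a25 held 2, an AGGTCA at 176 and a TGACCT at 155 bases. Of the remaining members, the windows of Cyp2b9 and Cyp2b13 each held an AGGTCA 138 bases before the start and that of Cyp3a16 held 0. Of 32851 promoter windows of the same length, 24.2% held AGGTCA or AGTTCA on either strand. Full repeats of these half-sites, direct with 3 or 4 bases between or everted with 6 or 8 bases between, were in 0 of the 7 windows and in at most 0.0244% of all windows. The letters are a description of these windows, and enhancers further upstream were not read. Aligned end to end, the windows of Cyp2b9 and Cyp2b13 were identical at 248 of 250 bases, and those of Cyp3a11 and Cyp3a16 at 76.6% of aligned columns. Cyp3a13 and Cyp3a11 matched at 57.2%, Cyp3a11 and Cyp3a25 at 55.6%, and Cyp3a13 and Cyp3a25 at 52.7%. Windows of a Cyp3a gene and a Cyp2b gene matched at 46.0% to 53.8%, a range that includes the value for Cyp3a13 and Cyp3a25. In the RefSeq gene order on chromosome 5, 121 protein-coding genes lie between Cyp3a13 and the nearest other Cyp3a gene, whereas Cyp3a11 and Cyp3a25 stand in the main Cyp3a cluster.

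Knockout livers were compared with wild-type livers to see how each of these transcripts stands without Chga. Among these genes 1 fell and passed the test, Cyp3a13. Cyp2b10 had lower values on each of its 3 probe sets without passing, the groups of the bright genes Cyp3a11 and Cyp3a25 overlapped, and Cyp3a16, Cyp2b9 and Cyp2b13 were near background. In RNA from whole liver, fewer cells of a type and less RNA per cell cannot be told apart. Probe sets whose mean log2 value over all 6 arrays lay in the upper 60% were kept, and 6 of the 9 member probe sets, of 4 of the 7 genes, passed this filter. Of those 6, 1 was called, beside 0.376% of all 13576 kept probe sets (0.184% called lower and 0.192% called higher).

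**Figure D1:**
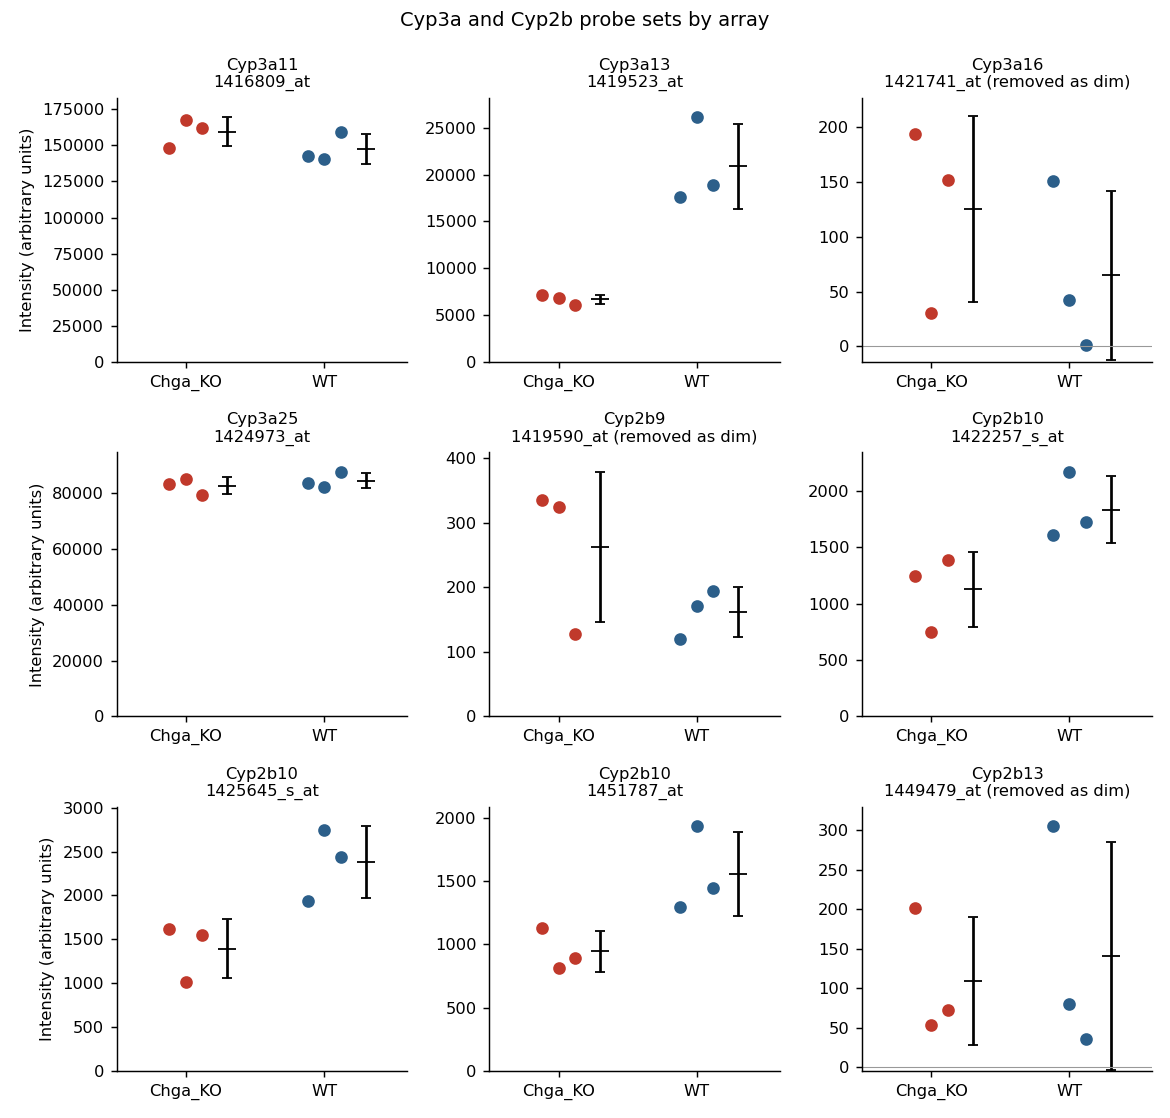
Intensity in arbitrary units (vertical axis, linear) of the 9 probe sets of the 7 genes, with 1 point per array, knockout on the left and wild type on the right of each panel; the bar beside the points is the mean with 1 SD (n = 3 each). The 3 knockout arrays of Cyp3a13 sit between 6122 and 7102, all below the wild-type arrays, and the 3 panels of Cyp2b10 show the same order of groups.

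Cyp3a13, a Cyp3a enzyme of mouse liver and intestine, read 7102, 6810 and 6122 in the knockout arrays, against 17593, 26096 and 18912 in the wild-type arrays. Every knockout array was below every wild-type array. The knockout arrays also lay closer together, with an SD of 0.11 against 0.30 in wild type on the log2 scale, and wild-type replicate 2 was the highest. The mean was 6678 ± 503 in knockout and 20867 ± 4576 in wild-type livers (SD, n = 3 each). The change was -1.62 ± 0.15 (SE; 95% interval -1.94 to -1.30, adjusted p = 0.000746), so that the knockout level was 0.325 of the wild-type level (95% interval 0.260 to 0.406). By p-value it ranked 5 among the 13576 kept probe sets. The change ran from -1.73 without wild-type replicate 1 to -1.45 without wild-type replicate 2, and the call was lost when the variance prior took no account of intensity (adjusted p = 0.0614). Without the filter on dim probe sets the adjusted p was 0.00112. Only 1 probe set measured this gene, and probes of this family can bind transcripts of related genes.

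Cyp3a11, the most studied Cyp3a enzyme of mouse liver, read 148397, 167760 and 161989 in the knockout arrays, against 142729, 140529 and 159405 in the wild-type arrays. The groups overlapped through knockout replicate 1 and wild-type replicate 3. The change was 0.11 ± 0.08 (SE, n = 3 per group; 95% interval -0.072 to 0.30, adjusted p = 0.700), an interval that reaches from 0.951 to 1.23 of the wild-type level; after quantile normalization the change was -0.036. Cyp3a25, a further Cyp3a enzyme of liver and intestine, read 83393, 85165 and 79406 in the knockout arrays, against 83566, 82242 and 87573 in the wild-type arrays. Here too the groups overlapped, with a change of -0.03 ± 0.08 (SE, n = 3 per group; 95% interval -0.20 to 0.14, adjusted p = 0.928), and of -0.15 after quantile normalization (adjusted p = 0.537). Both probe sets were among the brightest on the arrays, whose highest values lay between 208581 and 269124, and whether their signal rose in proportion to RNA at that level was not tested.

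Cyp2b10, the enzyme induced by phenobarbital through CAR, was measured by 3 probe sets, of which 1422257_s_at and 1425645_s_at carry the suffix that the manufacturer gives to probe sets matching more than 1 transcript. Probe set 1425645_s_at, the brightest, read 1618, 1012 and 1553 in the knockout arrays, against 1942, 2751 and 2442 in the wild-type arrays. Probe set 1422257_s_at read 1249, 748 and 1384 in the knockout arrays, against 1607, 2168 and 1725 in the wild-type arrays. Probe set 1451787_at read 1126, 812 and 895 in the knockout arrays, against 1293, 1931 and 1443 in the wild-type arrays. On all 3 probe sets every knockout array was below every wild-type array, knockout replicate 2 was the lowest and wild-type replicate 2 the highest. The changes were -0.78 ± 0.21, -0.73 ± 0.24 and -0.70 ± 0.21 (SE), at adjusted p-values of 0.189, 0.314 and 0.255, so 0 of 3 passed. The interval of the first, 0.421 to 0.806 of the wild-type level, did not reach 1, and its unadjusted p was 0.00385. The probe sets share a gene, and 2 of them the transcript they were designed on, so they are not independent readings. Without knockout replicate 2, the array with the lowest share of probe sets above background, the changes were -0.57, -0.46 and -0.60, with adjusted p-values from 0.404 to 0.556.

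Of the 6 kept member probe sets, 4 had groups that did not overlap with knockout lower, beside 8.12% of all kept probe sets, and 0 did with knockout higher, beside 7.44%; the 4 stand for 2 genes. The same 4 had an unadjusted p under 0.05, beside 9.97% of all kept probe sets; 5.58% of the kept probe sets had such a p with a lower and 4.38% with a higher value in knockout.

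**Figure D2:**
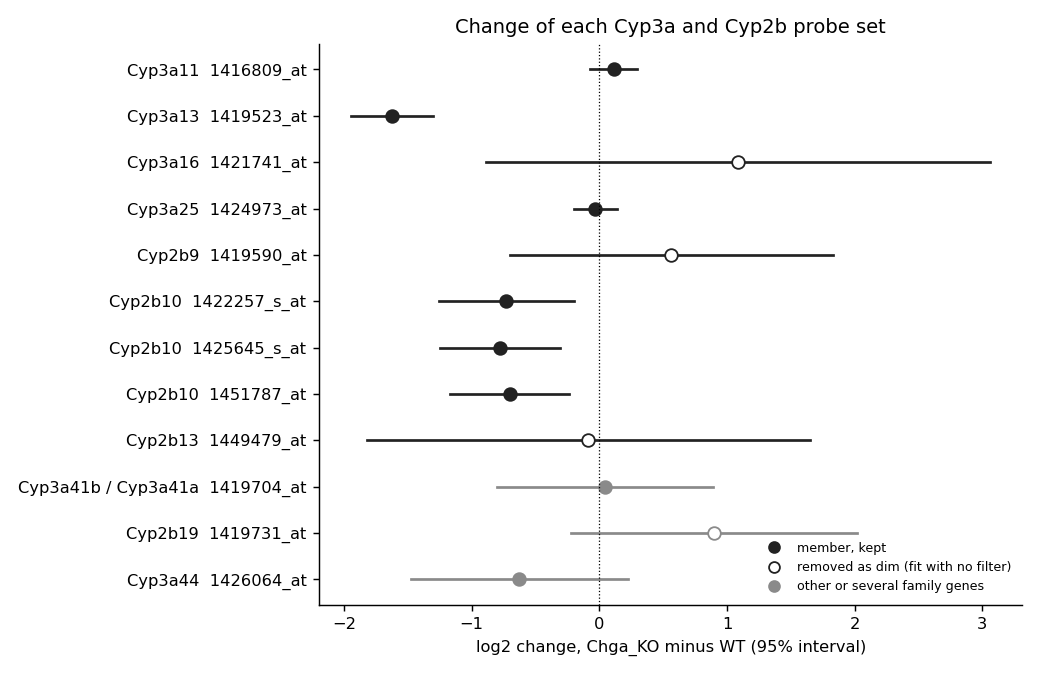
Log2 change, knockout minus wild type (horizontal axis), of each Cyp3a and Cyp2b probe set with its 95% interval (n = 3 per group). Black points are members, grey points other or several genes of the families, and open points probe sets removed as dim, fitted with no filter. Cyp3a13 stands at -1.62 and the 3 probe sets of Cyp2b10 between -0.78 and -0.70, while the intervals of the open points are wide.

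Within each array, the log2 ratio of 1 gene to another leaves out any factor that scales the whole array. These ratios were computed after the values above had been seen and rest on the same readings, and those to Cyp3a11 and Cyp3a25 also on the untested response of very bright probe sets. The ratio of Cyp3a13 to Cyp3a11 was lower in knockout by -1.73 ± 0.23 (SE), that to Cyp3a25 by -1.59 ± 0.20 and that to Cyp2b10 by -0.84 ± 0.25, all with groups that did not overlap. The ratio of Cyp2b10 to Cyp3a11 differed by -0.89 ± 0.30 and that to Cyp3a25 by -0.75 ± 0.28, again without overlap. Cyp3a25 over Cyp3a11 differed by -0.14 ± 0.07, and there the groups overlapped. In two-sided exact permutation tests the first 5 of these 6 pairs reached p = 0.1, the smallest that 3 against 3 arrays allow, and 0.12 after Benjamini-Hochberg over the 6 pairs; the last had p = 0.2.

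The other 3 members were removed by the filter, and their changes below come from the fit with no filter. Cyp3a16, a Cyp3a gene known from fetal and young mouse liver, read 193, 30.3 and 152 in the knockout arrays, against 151, 42.7 and 1.25 in the wild-type arrays. Cyp2b13, known for higher expression in female mouse liver, read 202, 53.0 and 72.6 in the knockout arrays, against 305, 79.7 and 35.9 in the wild-type arrays. For both genes the groups overlapped and the 95% interval was wide, from -0.89 to 3.06 for Cyp3a16 and from -1.82 to 1.65 for Cyp2b13. Cyp3a16 was above the background reference in 1 of 3 knockout and 0 of 3 wild-type arrays, and Cyp2b13 in 1 of 3 arrays of each group.

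Cyp2b9, also known for higher expression in female mouse liver, read 335, 324 and 128 in the knockout arrays, against 119, 171 and 195 in the wild-type arrays. Knockout replicates 1 and 2 were above all wild-type arrays and knockout replicate 3 was within their range. The change of 0.57 ± 0.57 (SE, n = 3 per group; 95% interval -0.70 to 1.83, adjusted p = 0.848) did not pass, and the gene was above the background reference in 2 of 3 arrays of each group. A difference in these 3 genes was not detectable at this signal.

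Probe sets of other genes of the families are kept apart. The one shared by Cyp3a41a and Cyp3a41b, near-identical copies known for higher expression in female mouse liver, read 3600, 1262 and 1103 in the knockout arrays, against 1818, 1235 and 2035 in the wild-type arrays. Knockout replicate 1 was the highest of all 6 arrays and the other knockout arrays were among the lowest. The change was 0.05 ± 0.38 (SE, n = 3 per group; adjusted p = 0.984), and -0.49 without knockout replicate 1 (adjusted p = 0.438). Cyp3a44, a neighbour of these genes with the same known sex bias, read 503, 249 and 327 in the knockout arrays, against 369, 653 and 655 in the wild-type arrays. The groups overlapped through wild-type replicate 1, and the change of -0.63 ± 0.38 (adjusted p = 0.631) did not pass. Cyp3a44 was above the background reference in 2 of 3 knockout and 3 of 3 wild-type arrays, at percentile 44.8 by mean log2 value. Cyp2b19, known from skin keratinocytes, read 249, 489 and 448 in the knockout arrays, against 298, 166 and 151 in the wild-type arrays and was removed as dim; with no filter its change was 0.90 ± 0.51 (adjusted p = 0.715).

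The receptors of these genes were measured too. Nr1i2, which encodes PXR, read 1547, 1592 and 1733 in the knockout arrays, against 1800, 2191 and 1935 in the wild-type arrays. Every knockout array was below every wild-type array, but the change of -0.28 ± 0.15 (SE, n = 3 per group; 95% interval -0.61 to 0.059, adjusted p = 0.591) did not pass, and the second kept probe set of the gene stood at 0.05. Nr1i3, which encodes CAR, read 8583, 8068 and 7455 in the knockout arrays, against 7301, 8018 and 7114 in the wild-type arrays. Its groups overlapped and its change was 0.10 ± 0.11 (95% interval -0.14 to 0.34, adjusted p = 0.800). Rxra, the main retinoid X receptor of liver, stood at -0.15 ± 0.12 (adjusted p = 0.725), and its other kept probe set at 0.10. Rxrb, a further retinoid X receptor, read 2317, 2269 and 2532 in the knockout arrays, against 2865, 2692 and 5007 in the wild-type arrays. Its groups did not overlap, wild-type replicate 3 stood far above the rest, and the change of -0.51 ± 0.21 (95% interval -0.98 to -0.036, unadjusted p = 0.0374, adjusted p = 0.469) did not pass. It was the 1 gene of the 16 receptors and partners with an unadjusted p under 0.05. Alas1, which sets the rate of heme synthesis, varied widely in both groups, from 29570 to 66687 in knockout and from 28753 to 56265 in wild-type livers, with a change of 0.09 ± 0.28 (adjusted p = 0.946). Por, the electron donor of these enzymes, was on the pathway list but had no kept probe set of its own.

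A list of 74 genes of the CAR and PXR pathway held 51 with a kept probe set, each taken by its brightest. They were 16 receptors and partners, 5 of electron transfer and heme supply or breakdown, and 30 other reported targets. By limma with Benjamini-Hochberg adjustment 0 of the 51 passed, beside 0.423% of all 8047 genes. At an unadjusted p under 0.05, 10 were higher in knockout, beside 4.57% of all genes, and 3 were lower, beside 5.69%; in either direction 10.3% of all genes had such a p. The median change was 0.077 over the list, 0.13 over the other targets and -0.037 over the receptors and partners, against -0.015 over all genes. Groups did not overlap for 9 genes with knockout higher, beside 7.77%, and for 3 with knockout lower, beside 7.84%.

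The 6 list genes with the smallest p-values were Cyb5b, Fmo5, Aldh1a1, Meg3, Cyb5r3 and Slco1a4. Cyb5b, an outer mitochondrial cytochrome b5, read 30214, 24680 and 24924 in the knockout arrays, against 17265, 19813 and 17127 in the wild-type arrays. Its groups did not overlap, and its change was 0.55 ± 0.11 (SE, n = 3 per group; adjusted p = 0.0635), with its other probe sets at 0.40 and 0.32. Cyb5r3, the reductase that passes electrons to cytochrome b5, stood at 0.37 ± 0.10 (adjusted p = 0.164), although its other probe sets were both at 0.11. Among reported targets, the flavin monooxygenase gene Fmo5 stood at 0.41 ± 0.09 (adjusted p = 0.0999), the retinaldehyde dehydrogenase gene Aldh1a1 at 0.43 ± 0.09 (0.100) and the noncoding RNA gene Meg3 at 0.86 ± 0.22 (0.160), each without overlap of the groups. Slco1a4, an organic anion transporter, stood at -0.43 ± 0.14 (adjusted p = 0.314) with overlapping groups. None of these 6 passed. Over the 30 other reported targets, 20 changes were above 0 and 10 below, against 3808 above and 4239 below over all genes. Many list genes are bright, Fmo5 at percentile 96.4 and Aldh1a1 at 99.4 by mean log2 value, while all genes span every kept intensity. Quantile normalization moved the bright Cyp3a11 from 0.11 to -0.036 and Cyp3a25 from -0.03 to -0.15. The part of such scaling in this split and in the counts of the list was not tested.

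**Figure D3:**
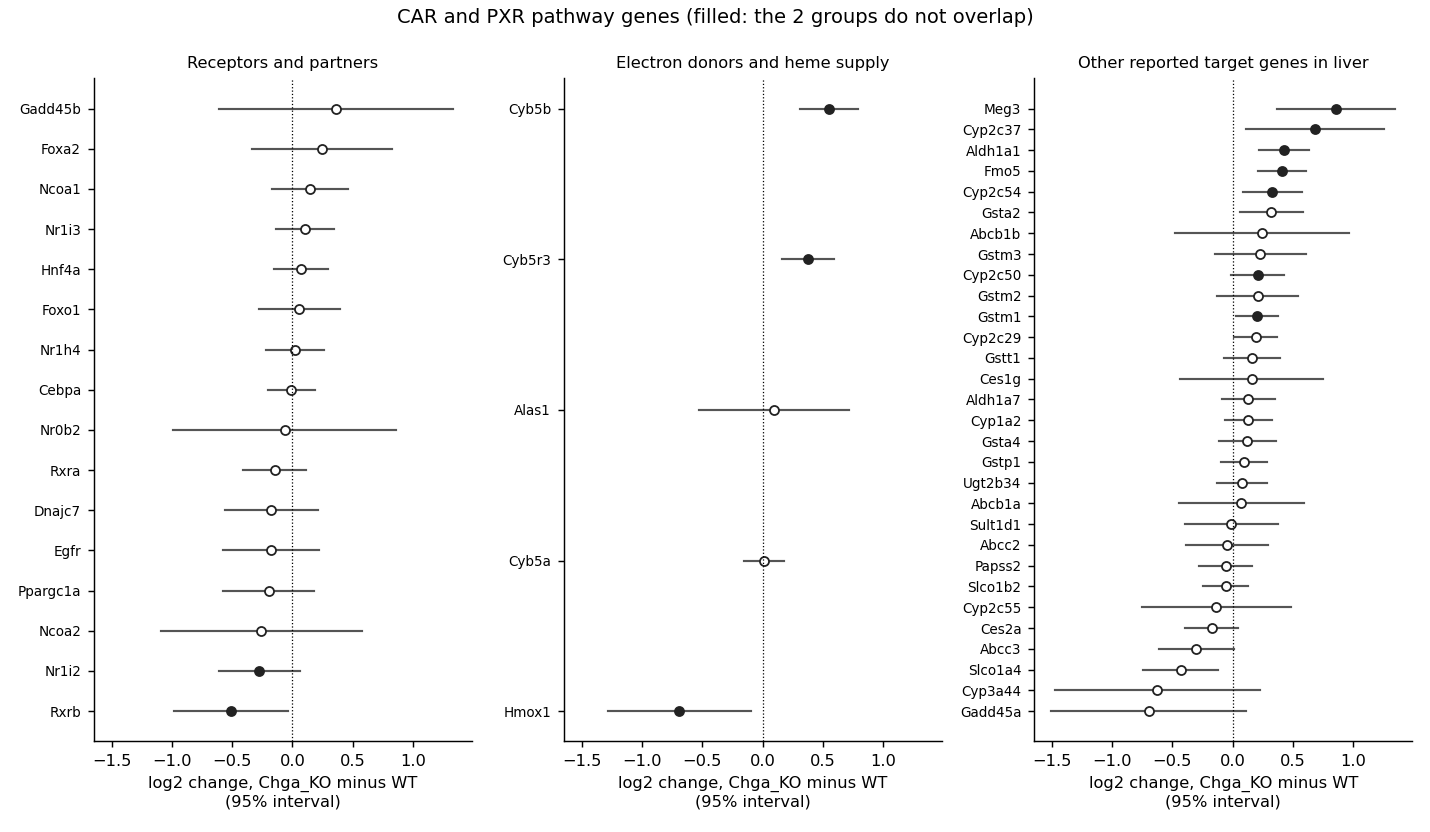
Log2 change, knockout minus wild type (horizontal axis), with its 95% interval for the 51 measured genes of the CAR and PXR list (n = 3 per group), in 3 panels by role. Filled points are genes whose groups do not overlap. The changes run from -0.70 to 0.86, and 0 of the 51 passed the adjusted threshold.

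Genes with a pattern like that of a member were sought by the root mean square difference over the 6 arrays between log2 values centred on the wild-type mean. Closest to Cyp3a13 were Pi4k2b, a lipid kinase (difference 0.23, change -1.38 ± 0.27), Rcn2, a calcium-binding protein of the endoplasmic reticulum (0.30, change -1.32 ± 0.26), and Bzw2 (0.32, change -1.27 ± 0.25), with adjusted p-values from 0.0585 to 0.0669. Closest to Cyp3a11 were Crb3 (0.023), the glutathione transferase gene Gstp1 (0.024) and Zfp36l1 (0.027), none of which passed. Closest to the brightest probe set of Cyp2b10 were Fkbp4 (0.13), Pik3ap1 (0.13) and Plpp2 (0.13), none of which passed. The likeness is a description of these 6 arrays.

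Cyp3a and Cyp2b enzymes are known to be stronger around the central vein, and markers of liver zones and of other liver cells were read beside them. All 7 measured hepatocyte markers had a change above 0, with a median of 0.12 and 0 called, but the groups overlapped for all except Cps1. These markers are bright, at percentile 97.2 or above by mean log2 value. The part of array scaling in this shift was not tested. Of the 11 pericentral markers 8 were higher, with the same median of 0.12 and 0 called, and Cyp2e1 is in both lists. The groups of Oat, Rgn and Rhbg did not overlap, with knockout higher, and those of the other pericentral markers overlapped. The summed pericentral intensity ran from 450659 to 508825 in knockout and from 438551 to 447762 in wild-type livers, a narrow gap between the groups. These linear sums rest mostly on the brightest markers, Cyp2e1, Rgn, Cyp1a2 and Oat, so they say little about the dimmer markers of the list. Of the 9 periportal markers 6 were lower and 3 higher, and their sums overlapped. The adhesion gene Cdh1 was the 1 called, at -1.01 (adjusted p = 0.010), beside 0.423% of all genes called. The arginase gene Arg1 stood at 0.22 (unadjusted p = 0.0286, adjusted p = 0.440). Its groups, like those of Cps1 at 0.11 and Cyp2f2 at 0.16, did not overlap, with knockout higher. The groups of Cdh1 and of Pck1 at -0.15 did not overlap either, with knockout lower. Over all genes, 7.77% had groups without overlap with knockout higher and 7.84% with knockout lower. Of the 9 kept Kupffer cell and macrophage markers 8 were lower, with a median of -0.21 and 0 called. Groups of Cd68 at -1.40 and C1qc at -0.37 did not overlap, with knockout lower, and those of the others overlapped. Cd68 read 403, 49.3 and 507 in the knockout arrays, against 708, 652 and 530 in the wild-type arrays. Knockout replicate 2, by far the lowest, was under the background reference. The 95% interval of Cd68 ran from -2.89 to 0.090 (limma, adjusted p = 0.537). The sums over all 10 Kupffer cell and macrophage markers on the array ran from 18386 to 29898 in knockout and from 23440 to 30475 in wild-type livers. All 6 kept stellate cell and matrix markers were lower, also with a median of -0.21 and 0 called, and their sums over 8 genes ran from 16699 to 22667 in knockout and from 20632 to 26253 in wild-type livers. Among them the collagen gene Col3a1 stood at -0.61 without overlap of the groups (unadjusted p = 0.00754, adjusted p = 0.261). Of the 7 kept endothelial markers 5 were lower, with a median of -0.035, 0 called and overlapping sums. All 4 measured cholangiocyte markers and all 6 lymphocyte markers were removed as dim; the cholangiocyte sums ran from 602 to 658 in knockout and from 666 to 909 in wild-type livers, and the lymphocyte sums overlapped. The part of these markers in the Cyp3a13 result was not tested.

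**Figure D4:**
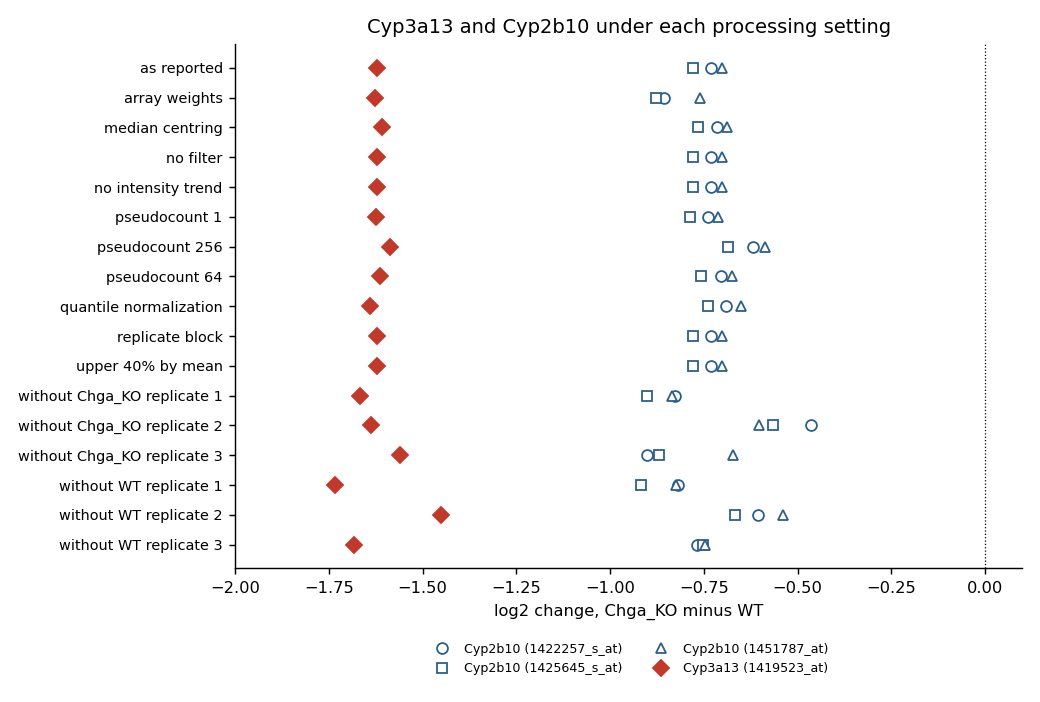
Log2 change, knockout minus wild type (horizontal axis), of Cyp3a13 (filled diamonds) and the 3 probe sets of Cyp2b10 (open symbols) as reported and under each of 16 alternative settings (vertical axis). Cyp3a13 stays between -1.73 and -1.45 and the Cyp2b10 probe sets between -0.92 and -0.46.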

How the data were processed

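Liver RNA of 6 mice was hybridised to 1 array each. GCOS 1.2, the array maker's software, is named in the submitters' processing notes; the authors deposited an intensity per probe set and array on a linear scale, and no source used here names the algorithm that summarised them. The mean after trimming 2% at each end lay between 2501.32 and 2501.42 on all arrays, so each had been scaled to a common level by the authors before deposit. No counts exist, and the number of arrays limits the precision.

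Of 22690 probe sets, 64 controls were left out; 20380 of the rest had 1 gene, 691 several and 1555 none in the platform annotation. Symbols were updated through RefSeq (GRCm38.p6), which also gave the promoter windows; motifs and alignments were run in Python 3.11.15 with Biopython 1.88. The files name no genome build. After log2(intensity + 16), the model was fitted in R 4.3.3 by limma 3.58.1 (lmFit, then eBayes with a trend on intensity) to all 6 arrays together without covariates, on the 13576 probe sets in the upper 60% by mean, with Benjamini-Hochberg at 0.05. The log2 scale with a pseudocount, computed here from the deposited intensities, understates changes of dim probe sets. The fit was also run on simulated data, with 13576 simulated probe sets in 5 runs. It called 58.2% of those given a 2-fold change and 85.4% of those given a 4-fold change, and 4.64% of calls were false. The simulated noise was normal, independent between probe sets and drawn from the variance prior of the same fit. These shares therefore do not check the fit on the real arrays.

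The genes named were all probe sets of the 7 members and of other genes of the families, Chga, the receptors, Alas1, the 6 list genes with the smallest p, and the 3 genes most like each of Cyp3a13, Cyp3a11 and Cyp2b10. Members, lists, tests and alternatives were chosen with earlier results of these data known; the ratios between members and the neighbours along the chromosome were added after seeing the values. The alternatives were pseudocounts of 1, 64 and 256, median centring, quantile normalization, the upper 40% by mean or no filter at all, no intensity trend, a block for the replicate number, array weights, a mean over each gene's probe sets, and leaving out each array in turn.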

Additional observations from a re-analysis of the deposited data

How the results depend on the processing

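Cyp3a13 kept its direction under 16 of 16 alternatives and its call under 15, with adjusted p-values from 0.000536 to 0.0614, the highest without the intensity trend, where 0 member probe sets were called; the cause was not tested. The 3 probe sets of Cyp2b10 kept their direction and stayed uncalled in all 16 (adjusted p from 0.122 to 0.672), and 0 pathway genes were called under any of them or by the mean of a gene's probe sets. Without an array in turn, the member count was 1 throughout. The count over all probe sets, 51, was 82 with a pseudocount of 256 and 82 with array weights, 7 without the intensity trend, and from 21 to 48 with 1 array left out, lowest without wild-type replicate 3 (21) and 1 (23). Cyp3a11 turned to -0.036 after quantile normalization; the Cyp3a41 probe set turned to -0.054 with array weights, -0.49 without knockout replicate 1 and -0.17 without wild-type replicate 2, and ran up to 0.36 without knockout replicate 3. The labels do not say whether replicate numbers pair the samples. Deviations of same-numbered arrays correlated between -0.0651 and -0.0589, and those of differently numbered arrays between -0.0198 and 0.0756. Because deviations were centred over only 3 arrays per group, these values cannot settle whether samples were paired. With the replicate block 27 probe sets were called, Cyp3a13 among them (adjusted p = 0.00408). For Cyp3a16, Cyp2b9 and Cyp2b13, signal near background limits what could be seen.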

Other observations

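Genes that neighbour the members were read in the RefSeq gene order. Around Cyp3a13 on chromosome 5, of the 10 nearest measured genes on each side, 20 in all, 0 were called and 2 had an unadjusted p under 0.05, beside 10.3% of all genes. The 2 were Zkscan1 and Lamtor4, and the 20 changes had a median of -0.035 and a range from -0.50 to 0.31. Of the 20 around Cyp2b10 on chromosome 7, 0 were called and 1 had such a p, the cytochrome P450 gene Cyp2a12, with a median of 0.046 and a range from -0.20 to 0.63. Of the 20 around Cyp3a11, which lies with other Cyp3a genes on chromosome 5, 0 were called and 1 had such a p, Bud31. These 20 changes had a median of -0.059 and a range from -0.63 (Cyp3a44) to 0.23. Changes below 0 numbered 14 around Cyp3a11, 10 around Cyp3a13 and 8 around Cyp2b10, of 20 each, against 4239 of all 8047 genes. The shares called, and those with such a p, were at or under those over all genes. These genes were looked up after the members' values had been seen.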
